A study of Rattus norvegicus with 24 samples.

Results

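The metabotropic glutamate receptors are a small family of G protein-coupled receptors, and 6 of them were analysed here in the frontal cortex of adult male Sprague-Dawley rats: Grm2, Grm3, Grm4, Grm5, Grm7 and Grm8. They were taken by gene name from 32883 reference genes in the deposited gene tables, where each had a single identifier, so they make up 6 of 32883 genes. The 24 libraries were made from polyadenylated RNA and fall into 3 groups of 8. Control animals inhaled 0 mg/m3 of tungsten particles, the Low group 5 mg/m3 and the High group 80 mg/m3. Samples were taken 24 h after the exposure. Control libraries carry the numbers 49 to 56, those of Low 57 to 64 and those of High 65 to 72, and each library stands for a separate animal. No genetic change, drug or other agent is named for any group, and Control differed from the exposed groups by the tungsten concentration alone as far as the labels say.

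These receptors sense glutamate, the main excitatory transmitter of the cortex, and act through G proteins rather than by opening a channel of their own. The family is divided by sequence and coupling. Grm5 belongs to group I, which couples through Gq to phospholipase C and the release of stored calcium and sits mainly at the edge of the postsynaptic density. Grm2 and Grm3 form group II, and Grm4, Grm7 and Grm8 belong to group III. Both of these groups couple through Gi and Go to lower cyclic AMP, and many of their members act on nerve terminals, where they reduce transmitter release. Grm3 is also well known in astrocytes.

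All values below are scaled coverage unless another unit is named. Coverage is the mean read depth per base of a gene as the authors' StringTie tables give it, and it was divided here by the sum over all reference genes of the library and multiplied by 1000000, which is abbreviated ppm. Because coverage is a depth per base, levels of different genes were set side by side within a library. The FPKM column did not stand in a fixed ratio to coverage across genes. Divided by the library's median ratio, the ratio averaged 1 for Grm2 and 4.73 for Grm8 in Control. Comparisons between genes therefore depend on the column. The summed coverage ranged from 1.64e+06 to 3.07e+06 across libraries, and mitochondrial genes took 21.8 to 33.8% of it. The tables give no read counts, so counting error is unknown here.

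Some libraries and tables stood apart before any receptor was considered. In libraries 49 (Control) and 57 (Low), 15.2 and 11.3% of the tested genes lay at under 50% of the median of the other libraries of the same group, against 0.952 to 4.43% in the other 22 libraries. Libraries 56 to 62, which hold 1 Control and 6 Low samples and no High sample, were separated by coverage of mitochondrial tRNA genes on the minus strand (0.545 to 0.810% of the total against at most 0.0155% in the other 17). The Control and High tables list between 46334 and 159573 assembled loci per library beside the reference genes, and the Low tables list none, so the kind of table and the Low dose cannot be told apart. Markers of cortical excitatory neurons were present in every library, with 4 summed markers (Slc17a7, Camk2a, Neurod6 and Tbr1) between 744 and 1894 ppm. A set of 8 markers of striatal neurons was present too, between 222 and 1698 ppm in sum, and it exceeded 1000 in 4 libraries, namely 55 of Control and 65, 66 and 67 of High.

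The receptor genes differed widely in size and position. Positions are those printed in the tables; the submitters name the build mRatBN7.2, but many gene names in the tables are clone names of an older assembly, so the build of these coordinates is uncertain. Grm5 (ENSRNOG00000016429) spans 344 kb of chromosome 1 on the plus strand, from 151439409 to 151783392. Grm2 (ENSRNOG00000013171) is the shortest at 13.0 kb, on the minus strand of chromosome 8 from 115344999 to 115358046. On chromosome 4 lie Grm3 (ENSRNOG00000005519, plus strand, 21317695 to 21560490, 243 kb), Grm7 (ENSRNOG00000005662, plus strand, 142780987 to 143367578, 587 kb) and Grm8 (ENSRNOG00000021468, minus strand, 54474136 to 55407922, 934 kb). Grm4 (ENSRNOG00000000487) occupies 45.8 kb of the minus strand of chromosome 20, from 6745682 to 6791519, and overlaps Ppil1 on the same strand. Grm8 holds Mir592 and a SNORA73 gene on its own strand, and no same-strand overlap was found for Grm2, Grm3, Grm5 or Grm7.

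In unexposed cortex, 5 of the 6 receptors were expressed at levels within a narrow range and the reference row of Grm8 was near the floor. In most Control libraries an assembled locus of nearly the same span as Grm8 had far more coverage (9.16 ppm against 0.694 in library 55). In library 52 the 2 were about equal (0.834 against 0.824). The Grm8 level and its step from Grm4 below therefore describe the reference row. Grm5 had the highest mean at 35.8 ± 11.98 ppm (SD, n = 8), followed by Grm3 at 32.1 ± 6.02, Grm7 at 23.9 ± 4.22, Grm2 at 23.0 ± 4.89, Grm4 at 14.8 ± 1.63 and Grm8 at 0.615 ± 0.116. Grm5 lay above 86.8% of all reference genes and Grm8 above 49.6%. Neighbours in this order were compared within libraries by a two-sided exact sign-flip test on log2(value + 1), adjusted over the 5 pairs, where the smallest possible p for 8 libraries is 0.0078. Grm3 exceeded Grm7 (adjusted exact p = 0.0260), Grm2 exceeded Grm4 (0.0195, in 8 of 8 libraries) and Grm4 exceeded Grm8 (0.0195, in 8 of 8). Grm5 and Grm3 were not distinguished (exact p = 0.789), nor were Grm7 and Grm2 (exact p = 0.570). The spread between Control libraries was smallest for Grm4, with a coefficient of variation of 11.1%, and largest for Grm5 at 33.5%, against a median of 16.9% over all genes tested. The Grm5 figure rested on library 49. Without it the coefficient was 14.5% for Grm5, 10.7% for Grm7, 11.6% for Grm4 and 20.6% for Grm2, then the largest among the 5 tested receptors, against a median of 12.6%. With the FPKM or TPM columns in place of coverage, only the step from Grm4 to Grm8 passed among neighbours. The step from Grm2 to Grm4 did not pass there (adjusted exact p = 0.273 with each). Grm5 then lay between Grm3 and Grm7, so these 2 were no longer neighbours and their step was not tested. Their mean FPKM in Control was 13.3 for Grm3 and 8.10 for Grm7. The order of means and the neighbours told apart thus depend on the column used.

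**Figure D1:**
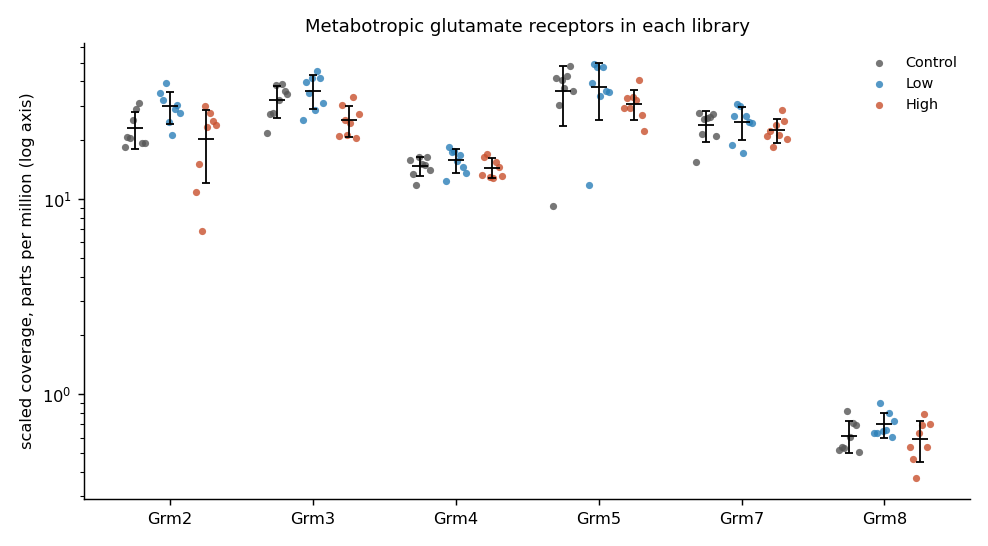
Scaled coverage (ppm, log axis) of the 6 receptors in the 24 libraries, each point 1 library, with the group mean and SD in black (n = 8 per group). Grm8 lies below 1 in every library, Grm5 falls to 9.18 in 1 Control and 11.8 in 1 Low library, and Grm2 reaches its lowest values, 6.89 to 15.2, in 3 High libraries.

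Exposure was examined by asking whether the receptors differed between Low, High and Control beyond the spread between animals. Of the 6 receptors, 5 passed the minimum mean of 1 and were tested among 15644 genes by limma on log2(value + 1), with Benjamini-Hochberg adjustment over all genes tested. The means of Grm8 (0.615 for Control, 0.700 for Low, 0.592 for High) were under that minimum. None of the 5 passed the threshold in Low against Control, where 6.11% of all genes did. None passed in High against Control either, where 0% of genes did (0 of 15644), 2.11% had an unadjusted p under 0.05 and the exact Wilcoxon rank-sum test also called 0. A single receptor, Grm3, passed in Low against High, where 11.7% of all genes passed, and a count of 1 in 5 does not stand apart from that share. In no comparison did a receptor separate the groups without overlap, against 1.53, 0.00639 and 2.26% of all genes in the same order of comparisons. The comparisons of Low and of High with Control share the 8 Control libraries.

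**Figure D2:**
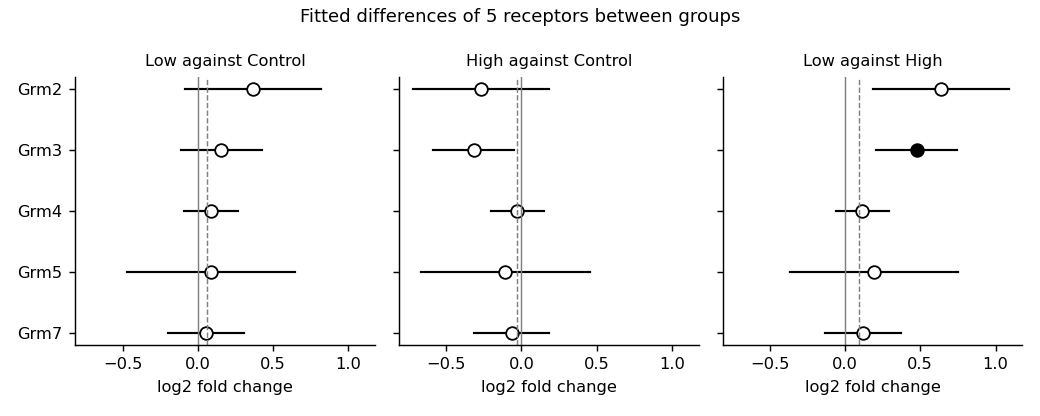
Log2 fold changes of the 5 tested receptors in 3 comparisons from limma on log2(value + 1), with 95% confidence intervals as bars; the filled circle marks an adjusted p under 0.05 and the dashed line the median of all genes tested. Only Grm3 in Low against High (0.48) is filled, and the intervals of Grm5 are the widest.

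Grm5, the group I receptor, passed in no comparison with all 24 libraries, and 2 of them stood far below the rest. In Control its values were 9.18, 41.9, 30.4, 40.7, 37.0, 42.8, 48.3 and 35.9 for libraries 49 to 56. The Low values ran from 11.8 in library 57 to 48.9 in library 59 with a median of 37.4, and the High values from 22.3 to 40.8 with a median of 30.7. Control 49 and Low 57 therefore lay far below all other libraries of their groups, whose lowest values were 30.4 and 33.7. The log2 fold change was 0.09 in Low against Control (95% CI -0.47 to 0.65), -0.11 in High against Control (-0.67 to 0.45) and 0.19 in Low against High (-0.37 to 0.75), with adjusted p-values of 0.891, 0.999 and 0.658 from limma.

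These results turned on libraries 49 and 57, the pair in which many genes were low. Without them, Grm5 was -0.35 in High against Control (adjusted p = 0.093, limma) and 0.41 in Low against High (adjusted p = 0.00969), so it passed the threshold in the latter. The background moved as well, from 0 to 2.49% of genes called in High against Control and from 11.7 to 28.8% in Low against High. The part of RNA quality or library preparation in these 2 libraries was not tested.

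Grm2, a group II receptor found largely on terminals of cortical projection neurons, had the widest spread in High. Its Control values were 18.4, 20.8, 20.6, 25.4, 28.9, 31.2, 19.3 and 19.4 in libraries 49 to 56. In Low they were 34.8, 32.0, 39.3, 24.8, 21.2, 28.8, 30.3 and 27.6 in libraries 57 to 64. In High they were 10.9, 15.2, 6.89, 30.0, 23.4, 27.7, 25.1 and 23.8 in libraries 65 to 72. High libraries 65, 66 and 67 were the lowest of all 24, while the other 5 High libraries lay within the range of Control. The fitted log2 difference was 0.37 in Low against Control (SE 0.22, adjusted p = 0.388), -0.27 in High against Control (SE 0.22, adjusted p = 0.999) and 0.64 in Low against High (SE 0.22, adjusted p = 0.0589, limma), and the last crossed the threshold in 3 of 24 fits that left out 1 library each.

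The same 3 High libraries carried less of the cortical excitatory markers and more of the striatal ones. Their 4 summed excitatory neuron markers were 1322, 1062 and 744 for 65, 66 and 67, against 1567 to 1837 in the other High libraries, and their 8 summed striatal markers were 1698, 1061 and 1243, against 222 to 507. All 8 striatal markers were above 0. Across the 24 libraries, Grm2 correlated with the neuron markers (r = 0.81, rho = 0.81, both permutation p = 1e-05, the smallest that 100000 permutations can give, and adjusted p = 0.0006 over 60 relations). The r was 0.67 without the 2 libraries farthest from the median, 0.77, 0.86 and 0.81 for Control, Low and High taken alone, 0.93 in libraries 56 to 62 and 0.76 in the other 17. With the striatal sum the correlation was inverse (r = -0.71, p = 0.00012; rho = -0.65, p = 0.0008; adjusted p = 0.00225 and 0.0096 by permutation). The striatal relation had r = -0.65 without the 2 libraries farthest from the median, -0.54 within Control, -0.49 within Low and -0.86 within High, and it was -0.75 in libraries 56 to 62 and -0.76 in the other 17. With the excitatory markers r was 0.72 overall (permutation p = 0.0003, adjusted 0.003; rho = 0.61, permutation p = 0.00173, adjusted 0.0173) and 0.49 without the 2 farthest. That relation held in Control (0.77) and High (0.93) but not in Low (0.098), and likewise outside libraries 56 to 62 (0.89) but not within them (0.052).

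The 4 libraries with striatal sums over 1000 include the 3 lowest Grm2 values, so leaving them out had to raise the High mean. The Grm2 difference between High and Control was then 0.16 (adjusted p = 0.99999, limma), against -0.27 with all libraries. In bulk tissue, fewer cells of a type and less RNA per cell cannot be told apart, and the part of the dissected region in the Grm2 values was not tested.

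**Figure D3:**
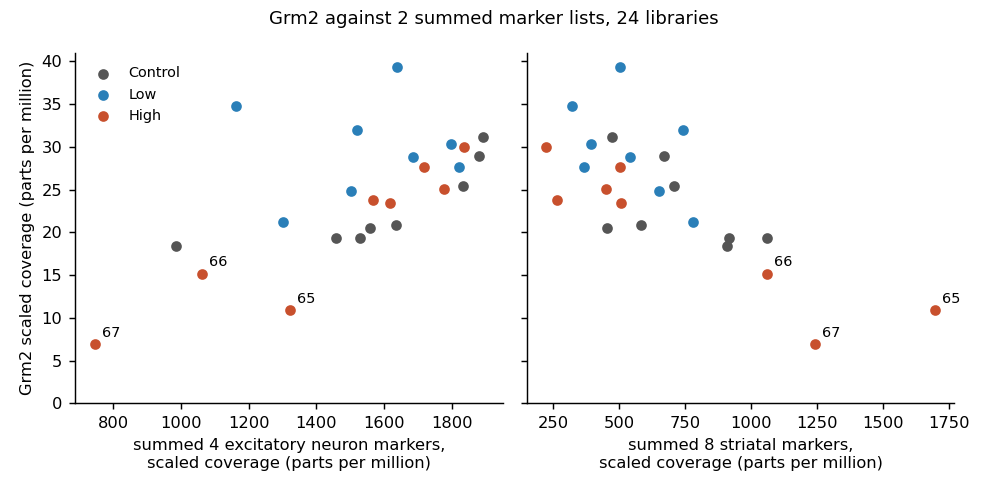
Grm2 (scaled coverage, ppm) against the summed coverage of 4 excitatory neuron markers (left) and 8 striatal markers (right), each point 1 of 24 libraries coloured by group, with High libraries 65, 66 and 67 labelled. These 3 have the lowest Grm2 values (10.9, 15.2 and 6.89) and striatal sums above 1000.

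Grm3, the other group II receptor, was the only one whose difference passed the test. Its High values were 21.1, 30.2, 25.4, 21.2, 24.4, 33.3, 20.5 and 27.4 in libraries 65 to 72, and its Low values 25.2, 39.7, 34.9, 41.5, 28.5, 45.2, 41.6 and 31.0 in libraries 57 to 64. The Control mean lay between those of the exposed groups, with single values from 21.8 to 39.0 and a median of 33.4. Low and High overlapped, since Low 57, 61 and 64 lay below High 70. The log2 fold change in Low against High was 0.48 (SE 0.13, 95% CI 0.21 to 0.75, adjusted p = 0.0179, limma), and it passed in all 24 fits that left out 1 library each (0.43 to 0.54, adjusted p 0.00658 to 0.0475). Neither dose passed against Control, with 0.16 for Low (adjusted p = 0.549) and -0.32 for High (unadjusted p = 0.0225, adjusted p = 0.999), against medians over all genes of 0.06 and -0.03.

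The Grm3 call did not outlast several other treatments of the same files. It was lost with the exact Wilcoxon test (adjusted exact p = 0.0624), with membership of libraries 56 to 62 as a covariate (0.45, adjusted p = 0.289), in the 17 libraries outside that range (0.50, adjusted p = 0.367, where only 2 Low libraries remain) and without the 4 libraries of high striatal sum (0.48, adjusted p = 0.0691). Without the division by library sum it was 0.27 (adjusted p = 0.618). With FPKM rescaled to the coverage scale the difference shrank to 0.09 (adjusted p = 0.714), while 20.8% of all genes passed. The FPKM of Grm3 did not stand in a fixed ratio to its coverage. Divided by the library's median ratio over genes, the Grm3 ratio was 1.05 to 1.09 in the 8 Low libraries, 1.02 to 1.46 in Control and 1.03 to 2.40 in High. The High libraries with the largest ratios, 68 (1.81), 69 (2.40) and 71 (1.78), were among the 4 High libraries of lowest Grm3 coverage (21.2, 24.4 and 20.5).

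**Figure D4:**
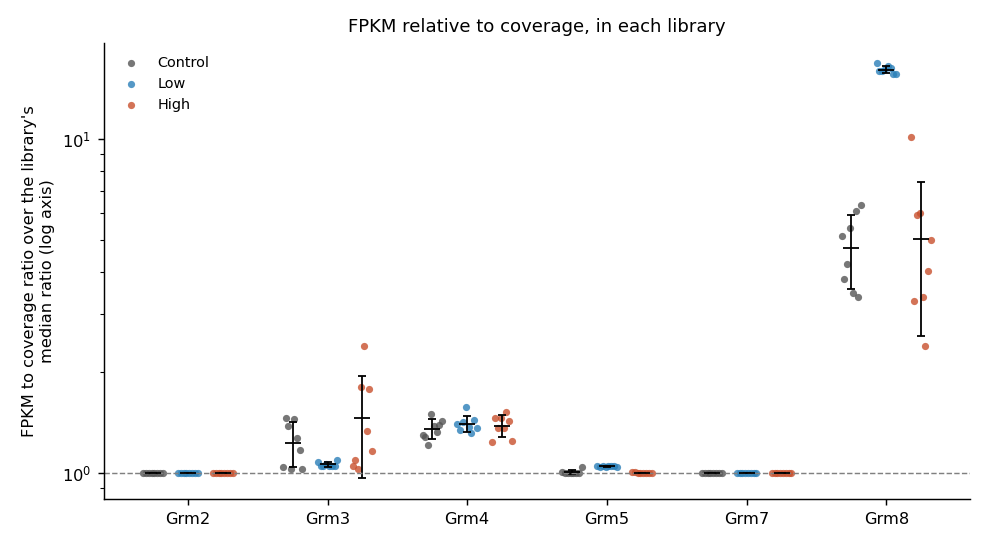
Ratio of FPKM to coverage of each receptor, divided by the median ratio of all genes in the same library (log axis), each point 1 of 24 libraries, with group mean and SD in black; the dashed line marks 1. Grm2 and Grm7 sit at 1, Grm3 spreads up to 2.40 in High but not in Low, and Grm8 lies near 16 in Low and between 2.39 and 10.2 in Control and High.

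The relation of Grm3 to the summed astrocyte markers did not pass the adjustment. Their 8-gene sum lay between 2528 and 3508 ppm for Control, between 2653 and 3184 for Low and between 2296 and 3182 for High, and its correlation with Grm3 was weak (r = 0.30, permutation p = 0.16; rho = 0.27, permutation p = 0.20). Marker sums are unweighted, so the highest genes weigh most. By Control medians these were S100b (1253) and Aldoc (561) for astrocytes, where Aldh1l1 was 7.80. They were Bcan (177) for oligodendrocyte precursors and Slco1c1 (56.1) for endothelium, where Cldn5 was 0 and 4 of 5 listed genes were found. Of the 60 relations between receptors and marker sums, 7 passed the adjustment by both r and rho, 5 by r alone and 1 by rho alone. Grm5 passed with oligodendrocyte precursor markers by r alone (r = 0.69, adjusted permutation p = 0.00225, r of 0.43 without the 2 farthest libraries). With neuron markers Grm5 passed by rho alone (rho = 0.65, adjusted permutation p = 0.0096). Those of Grm7 are given below. For Grm3 the neuron markers passed by both (r = 0.55, permutation p = 0.00553, adjusted 0.0369; rho = 0.58, permutation p = 0.00317, adjusted 0.0238), with r of 0.57 without the 2 farthest libraries, 0.82, 0.14 and 0.061 within Control, Low and High, 0.23 in libraries 56 to 62 and 0.54 in the other 17. The relation was thus high within Control alone. Oligodendrocyte markers correlated with Grm3 by r but did not pass by rho (r = 0.58, permutation p = 0.00189, adjusted 0.0142; rho = 0.52, permutation p = 0.00905, adjusted 0.0554), with r of 0.44 without the 2 farthest libraries and 0.40, 0.34 and 0.69 within Control, Low and High. Within libraries 56 to 62 this r was 0.22, and in the other 17 it was 0.67. Oligodendrocyte precursor markers (r = 0.54, permutation p = 0.00678, adjusted 0.037; rho = 0.52, permutation p = 0.0104, adjusted 0.0566) also passed by r alone, with 0.45 without the 2 farthest libraries, 0.90, 0.65 and 0.14 within Control, Low and High, 0.58 in libraries 56 to 62 and 0.48 in the other 17. Endothelial markers did so as well (r = 0.52, permutation p = 0.00927, adjusted 0.046; rho = 0.51, permutation p = 0.0124, adjusted 0.062), but their r was 0.46 without the 2 farthest, 0.25, 0.77 and -0.25 within Control, Low and High, 0.62 in libraries 56 to 62 and 0.34 in the other 17, so it changed sign between groups. The 6-gene oligodendrocyte sum was 4154 to 7951 ppm in Low and 2466 to 6258 in High, and its part in the Grm3 difference was not tested.

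Among the group III receptors Grm4 was the most even, with coefficients of variation of 11.1, 13.6 and 11.7% in Control, Low and High, while those of Grm7 were 17.7, 19.2 and 14.3% and those of Grm8 18.9, 14.9 and 23.7%. In Control this order of Grm4 and Grm7 turned without library 49, as given above. Grm4, whose product acts mainly on terminals and is best known in the cerebellum and basal ganglia, lay between 11.7 and 16.5 in Control libraries, between 12.4 and 18.4 in those of Low and between 12.8 and 17.03 in those of High. Its differences were 0.09 in Low against Control, -0.03 in High against Control and 0.12 in Low against High (SE 0.09 each, adjusted p 0.615, 0.999 and 0.377, limma). The 4 cerebellar markers, of which Calb2 and Zic1 are also found in forebrain cells, correlated with it across libraries (r = 0.68, permutation p = 0.0003, adjusted 0.003; rho = 0.76, permutation p = 5e-05, adjusted 0.0015), with r of 0.67 without the 2 farthest libraries and 0.60, 0.67 and 0.91 within Control, Low and High. Within libraries 56 to 62 that r was 0.48, and in the other 17 it was 0.75. The marker sum itself was small, at 12.3 to 100 ppm, and came almost wholly from Calb2 (group medians 13.99 to 15.5) and Zic1 (12.7 to 15.2). The defining cerebellar genes were at or near 0, with group medians of 0 to 0.0778 for Pcp2 and 0.18 to 0.34 for Gabra6. Oligodendrocyte precursor markers passed with Grm4 as well (r = 0.54, permutation p = 0.00629, adjusted 0.037; rho = 0.60, permutation p = 0.00239, adjusted 0.0205), with r of 0.62 without the 2 farthest libraries, 0.17, 0.81 and 0.77 within Control, Low and High, 0.49 in libraries 56 to 62 and 0.52 in the other 17.

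Grm7, the low-affinity receptor of the presynaptic active zone, ranged in Control from 15.4 to 27.7, in Low from 17.1 to 30.6 and in High from 18.4 to 28.7. Its fold changes of 0.05, -0.07 and 0.12 on the log2 scale (SE 0.12 each) gave adjusted p-values of 0.844, 0.999 and 0.530 from limma. The lowest Control value was in library 49, as for Grm5, Grm3 and Grm2. For Grm2 the next value was close (18.4 in library 49, 19.3 in library 55). Like Grm2, Grm7 passed with the neuron markers by both measures (r = 0.70, permutation p = 9e-05, adjusted 0.00225, and rho = 0.69, permutation p = 0.00028, adjusted 0.0056). That r was 0.79, 0.58 and 0.87 within Control, Low and High. With the excitatory markers Grm7 passed by r alone (r = 0.67, permutation p = 0.00052, adjusted 0.00446). For an interval, Grm7 in High against Control lay between -0.32 and 0.19, which leaves room for a change of that size in either direction.

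The reference row of Grm8 had the least coverage of the family, with Control libraries at 0.504 to 0.824, those of Low at 0.604 to 0.904 and those of High at 0.372 to 0.796. The groups overlapped, and with no filter on low values its log2 difference was 0.08 in Low against Control (adjusted p = 0.594, limma). The FPKM column of the same rows told otherwise, with means of 0.992 ± 0.317 for Control, 5.51 ± 0.666 for Low and 1.02 ± 0.489 for High (SD, n = 8 each). On the rescaled FPKM scale Grm8 was 1.68 higher on the log2 scale in Low than in Control (adjusted p = 2.27e-08) and 1.73 higher than in High (adjusted p = 1.3e-08), while 13.2 and 20.8% of all genes passed in these comparisons. All Low tables lack assembled loci, so the dose and the kind of table cannot be told apart for this value.

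In the 16 Control and High tables, an assembled locus on the same strand lay over each receptor and was set beside the reference row. For Grm2 the locus had the same start and end as the reference gene in 16 of 16 libraries, with a median coverage of 0.891 times that of the reference row. For Grm5 it began more than 100 kb upstream of the reference start in 15 of 16 libraries, by a median of 232 kb, and for Grm7 in 15 of 16, by a median of 328 kb. Library 56 was the exception for both. For Grm8 the span was nearly that of the reference gene, but the assembled coverage was more than 10 times the reference coverage in 14 of 16 libraries (median ratio 12.8). For Grm4, 3 or 4 loci lay on its strand in each library. The locus set beside the reference row usually ran past the gene at both ends, 54.4 kb upstream at the median, with 0.268 times its coverage. Another locus on the strand reached a coverage of 44.1 in library 50, against 7.69 for the one used. The Grm4 ratio therefore does not show how far the reference row covers the gene.

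The assembled loci also bear on the low Grm5 of library 49. There the Grm5 locus had a coverage of 58.4 where the reference row had 18.3, and an FPKM of 11.5 against 3.57. The locus FPKM of the other 15 libraries ranged from 11.1 to 21.1, so library 49 was at the low end of that range but not apart from it. Library 51 went the other way in coverage, 8.56 for the locus and 85.7 for the reference row, with FPKM of 14.1 and 10.9. No such locus is listed for Low 57.

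**Figure D5:**
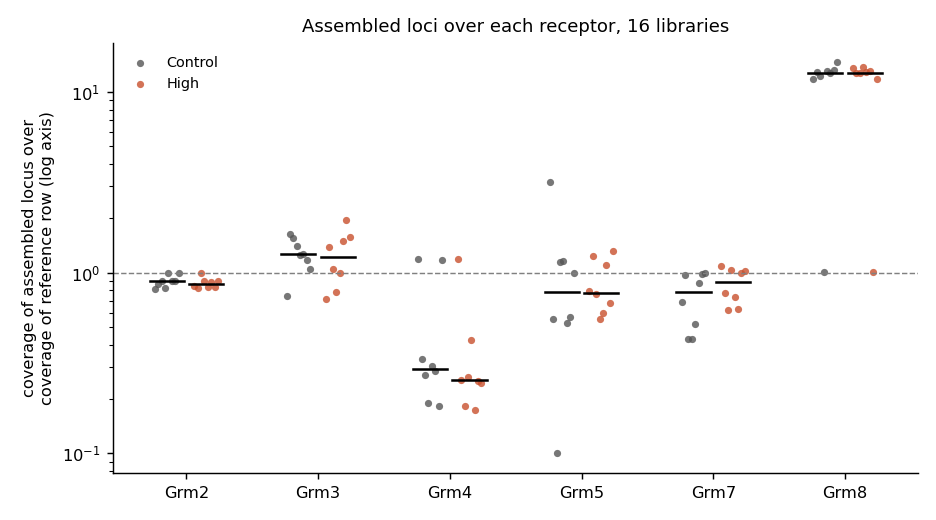
Coverage of the assembled locus over each receptor divided by the coverage of its reference row (log axis), each point 1 of 16 Control and High libraries, with group medians as black bars; the dashed line marks 1. Grm8 loci sit near 12.8 times the reference row in 14 libraries, Grm4 loci mostly below 1, and Grm5 has 1 library at 3.18 and 1 at 0.0999.

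Grm5 and Grm7 were the pair of receptors whose levels went together most closely. Across 24 libraries r was 0.78 and rho 0.87, both with a permutation p of 1e-05 and an adjusted p of 0.0001 over 10 pairs. It was 0.74 without the 2 libraries farthest from the median, and 0.94, 0.70 and 0.61 within Control, Low and High. In libraries 56 to 62 it was 0.67 and in the other 17 it was 0.86. Grm3 and Grm5 followed (r = 0.63, permutation p = 0.00019, adjusted 0.00095; rho = 0.78, permutation p = 2e-05, adjusted 0.0001), with r of 0.62 without the 2 farthest libraries, 0.80, 0.75 and 0.39 within Control, Low and High, 0.81 in libraries 56 to 62 and 0.58 in the other 17. Other pairs passed by both measures too, namely Grm3 with Grm7 (r = 0.59, rho = 0.61, adjusted permutation p = 0.00863 and 0.00727), Grm3 with Grm4 (0.55, 0.56, 0.0161 and 0.0128) and Grm2 with Grm7 (0.50, 0.46, 0.0249 and 0.0426). Within High their r was 0.21, 0.49 and 0.71. Grm4 with Grm5 passed by rho alone (0.51, adjusted permutation p = 0.0251). For Grm2 and Grm4 no relation was detected (r = -0.03, permutation p = 0.893; rho = 0.03, permutation p = 0.885).

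Promoter windows from RefSeq (250 bases before to 50 after the gene start, build GRCr8) were matched for 3 of the 6 receptors in the table used here. Those of Grm5 and Grm7 are printed because this pair moved together and because the assembled loci of both began far upstream of the start in the tables. Capitals mark CG dinucleotides, searched as the letters CG, which read the same on both strands. The Grm5 window is chr1:150733503-150733802 on the plus strand, with 1 CG and 37.3% G and C. The Grm7 window is chr4:145286476-145286775 on the plus strand, with 9 CG and 62.0% G and C.
Grm5: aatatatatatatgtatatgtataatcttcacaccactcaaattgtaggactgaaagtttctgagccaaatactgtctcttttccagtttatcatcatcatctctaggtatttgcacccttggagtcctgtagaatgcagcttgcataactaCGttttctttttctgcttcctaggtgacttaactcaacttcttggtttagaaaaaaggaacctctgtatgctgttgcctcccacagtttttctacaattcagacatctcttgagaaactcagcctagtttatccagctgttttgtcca
Grm7: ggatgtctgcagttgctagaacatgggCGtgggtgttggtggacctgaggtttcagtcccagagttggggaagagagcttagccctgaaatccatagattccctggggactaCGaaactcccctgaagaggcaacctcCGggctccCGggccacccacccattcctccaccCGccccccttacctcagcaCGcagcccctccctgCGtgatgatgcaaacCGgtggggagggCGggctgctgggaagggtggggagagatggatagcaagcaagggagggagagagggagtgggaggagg
Of 33469 promoter windows of this length, 94.5% hold at least as many CG as that of Grm5 and 44.3% at least as many as that of Grm7, with a median of 7. The window of Grm8 holds 6. Nothing in these data measures binding or methylation at these windows.

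The genes most like each receptor over the 24 libraries were taken as the 3 named genes with the highest Pearson r of log2(value + 1). Grm2 was closest to Sidt1 (r = 0.961), Cxxc5 (0.944) and Dkk3 (0.937). Grm3 was closest to Bicd1 (0.908), Map3k2 (0.907) and Zfp329 (0.905). For Grm5 these were Pdzd2, Peak1 and Gabra2, each at about 0.98, and between 0.909 and 0.933 over the 22 libraries without 49 and 57. Grm7 was closest to Map2k4 (0.947), Atp2b3 (0.941) and Pafah1b2 (0.935). The values for Grm4 were lower, with Sp9 (0.795), Gad1 (0.785), which makes GABA, and Slco3a1 (0.783). The 6-gene inhibitory neuron sum, which includes Gad1, did not pass with Grm4 (r = 0.15, permutation p = 0.50, and rho = 0.22, permutation p = 0.29). All of these points share library, depth and dissection, and the values describe likeness across these libraries only.

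The signalling genes around the receptors were read from 7 lists of G proteins, Gq effectors, Gi effectors, regulators, binding partners, genes of agonist supply and plasticity genes downstream of Grm5. Of 84 listed genes 81 were found and 80 tested. In Low against Control, 0 of 80 rose and 1 fell, against 1.23% and 4.88% of all genes. In High against Control 0 of 80 passed, against 0% of all genes, and the median fold change was -0.07, against -0.03 over all genes. In Low against High, 4 rose and 1 fell, against 5.30% and 6.39% of all genes, and the median was 0.16 against 0.09. The counts past the threshold are near or below the background, and the 4 that were higher differed by 0.22 to 0.29 on the log2 scale.

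The gene that fell by coverage was Rgs8, which speeds the shut-off of Gi and Go signals, though its direction turned with the FPKM, rescaled FPKM and TPM values. Its means were 19.8 ± 3.87 for Control, 10.9 ± 1.44 for Low and 19.2 ± 3.83 for High (SD, n = 8 each), and every Low library (7.98 to 12.7) lay below every Control (13.4 to 24.9) and High library (14.2 to 25.3). The log2 difference was -0.80 against Control (SE 0.12, adjusted p = 5.79e-05) and -0.75 against High (adjusted p = 0.000117, limma), and both passed in all 24 fits without 1 library. Its ratio of FPKM to coverage, relative to the library's median, was 2.11 to 2.72 for Low libraries, 1.03 to 1.35 for Control and 1.23 to 1.52 for High. The difference from Control was 0.14 with rescaled FPKM (adjusted p = 0.595), 0.23 with TPM (adjusted p = 0.204) and 0.60 with FPKM (adjusted p = 8.19e-05, limma), where 86.5% of all genes were called higher in Low. The kind of table and the Low dose cannot be told apart for Rgs8 either.

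The genes higher in Low than in High were Cyth2, Adcy2, Adcy3 and Rgs2. Cyth2, an exchange factor known to bind group I receptors, was 0.29 higher (adjusted p = 0.0271, limma) and passed in 20 of 24 fits without 1 library. The adenylyl cyclases Adcy2 and Adcy3, which make cyclic AMP, were each 0.26 higher (adjusted p = 0.0390 and 0.0418) and passed in 13 of 24, and Rgs2, which shuts off Gq, was 0.22 higher (adjusted p = 0.0463) and passed in 8.

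Homer1, which ties Grm5 to the postsynaptic scaffold and to calcium stores, averaged 54.1 ± 14.2 for Control, 57.2 ± 12.3 for Low and 45.3 ± 16.1 for High, a log2 difference of 0.37 in Low against High (adjusted p = 0.252, limma). Homer2 was 9.97, 10.7 and 8.79 in the same order and Homer3 was 6.64, 6.11 and 6.70. Along the Gq path, Gnaq was 84.7, 84.5 and 72.0, phospholipase Plcb1 was 80.7, 92.4 and 71.9, and the calcium release channel Itpr1 was 130 ± 29.0, 146 ± 27.6 and 108 ± 20.5, with 0.44 for Itpr1 in Low against High (adjusted p = 0.0656). On the Go side, Gnao1 was 296, 297 and 281. Pick1, which binds Grm7, was 33.5 ± 1.56, 35.0 ± 3.43 and 34.0 ± 2.25, the smallest coefficients of variation (4.67, 9.78 and 6.60%) among the 5 partners named here. Elfn1, the postsynaptic protein that recruits Grm7 to terminals on certain interneurons, was 13.0, 13.1 and 15.3. None of these passed by limma on coverage with all 24 libraries. Without libraries 49 and 57, Itpr1 (0.52), Homer1 (0.48), Plcb1 (0.42), Homer2 (0.38) and Gnaq (0.34) passed in Low against High, where 28.8% of all genes did, and Gnaq (-0.36) in High against Control, where 2.49% did. With rescaled FPKM, Homer1 (0.71), Itpr1 (0.57), Homer3 (0.55) and Plcb1 (0.47) passed in Low against High and Homer3 (0.51) in Low against Control, where 20.8 and 13.2% of genes passed. Homer3 was -0.09 in both comparisons by coverage, so its direction turned.

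Among genes that set the glutamate or agonist supply, the glial glutamate transporter Slc1a2 had the largest difference in High against Control. Its Control values ran from 65.0 in library 49 to 512, and the other 7 Control libraries lay between 350 and 512. In Low it ran from 70.2 in library 57 to 541, and in High from 142 to 342. All 8 High libraries were therefore below 7 of 8 Control libraries and above the eighth. The log2 difference in High against Control was -0.74 (SE 0.39, adjusted p = 0.999, limma) with all libraries and -1.07 (adjusted p = 0.00333) without 49 and 57. On the rescaled FPKM scale it was -0.36 (adjusted p = 0.9996), and its relative ratio of FPKM to coverage reached 2.23 in Control and 4.40 in High and stayed at 1 in Low. Slc17a7, the vesicular glutamate transporter of cortical excitatory cells, was 768 ± 111, 646 ± 128 and 693 ± 193 in Control, Low and High. Folh1, the peptidase that degrades the Grm3 agonist N-acetylaspartylglutamate, was 13.5 ± 3.34, 13.7 ± 2.47 and 13.6 ± 2.67, with differences of 0.04 for Low and 0.03 for High against Control.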

How the data were processed

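RNA of 24 rat frontal cortex samples (8 Control, 8 Low, 8 High) had been sequenced after TruSeq stranded mRNA preparation. Per the labels, the submitters' processing notes name FastQC, Trimmomatic, TopHat2 and StringTie and the build mRatBN7.2, with versions not given in the sources used here. The authors deposited 1 gene table per library, with coverage (a signal, mean depth per base), FPKM and TPM columns. In the Control and High tables the deposited TPM column sums to more than 1000000 over the rows, so it was treated as a score there. These tables list assembled loci beside reference genes. Replicates are separate animals per the study's methods.

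Here the coverage of the 32883 reference genes was summed per identifier, taken as parts of 1000000 of the library sum. The 15644 genes whose mean reached 1 were tested by limma 3.58.1 (R 4.3.3, trend and robust) on log2(value + 1), with 3 groups in 1 fit and Benjamini-Hochberg adjustment at 0.05; fold changes are on that scale, which understates changes of low genes. Where 2 values were compared within libraries an exact sign-flip test was used, and correlations used 100000 permutations (scipy 1.17.1 with numpy 2.4.6 in Python 3.11.15). The fits were tested on simulated data. Named genes were the 6 receptors, 12 signalling genes fixed by name, every signalling gene past the threshold and the 3 genes most like each receptor. 1 signalling gene and 1 marker gene are not reported here and were left out of the counts and sums. Slc1a2 per-library values were looked at because of its spread. The receptors and all lists were chosen with earlier results of these data known. Alternatives included other scalings, columns, filters, pseudocounts and sets of libraries; 4 of them (without libraries 55, 65, 66 and 67, a striatal covariate, rescaled FPKM, and the 17 libraries outside 56 to 62) were chosen after seeing the data. Because coverage is not a count, no count model was run and depth per gene is unknown.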

Additional observations from a re-analysis of the deposited data

Results flagged for a closer look

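Grm5 in Control library 49 was 9.18 ppm, while the other 7 Control libraries lay between 30.4 and 48.3. Grm5 in Low library 57 was 11.8, against 33.7 to 48.9 in the other 7. In each case the gap to the nearest library exceeded the 95% critical value of Dixon's test for 8 samples, with ratios of 0.541 and 0.592. Of 18 sets of 8 values examined, chance would flag about 0.9. In both libraries many other genes were low as well, and the cause was not tested.

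Grm3 differed between the Low and High libraries, with Low 0.476 above High on the log2 scale (adjusted p = 0.0179, limma), and the dose and the kind of table cannot be told apart here. Mean levels were 32.1 in Control, 36.0 in Low and 25.5 in High (n = 8 each). With rescaled FPKM it shrank to 0.09 (adjusted p = 0.714, limma) and with TPM to 0.14 (adjusted p = 0.558). With libraries 56 to 62 as a covariate (0.45) or left out (0.50) the call was lost while the difference kept its size.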

How the results depend on the processing

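Among 240 receptor fold changes recomputed under all alternatives other than leaving out 1 library, 202 kept their direction and side of the threshold.

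The receptor counts depended on the column used. Receptors passing in Low against Control numbered 6 with FPKM, 1 with rescaled FPKM (13.2% of all genes) and 1 with TPM (25.4%), against 0 with coverage (6.11%). In Low against High they numbered 6, 2 (20.8%) and 2 (25.2%), against 1 (11.7%). With rescaled FPKM the receptor called in Low against Control was Grm8, which was under the minimum mean by coverage. Grm3, called by coverage in Low against High, did not pass there with rescaled FPKM, as given above. FPKM alone called 89.7 and 89.8% of all genes in these comparisons, so its counts say little of single genes. The count in Low against High was also 2 with mitochondrial genes left out of the scaling (16.7%), with the striatal covariate (13%) and without libraries 49 and 57 (28.8%). It was 0 with the exact Wilcoxon test (7.33%), the covariate for libraries 56 to 62 (2.26%) and no scaling (7.99%). With only the libraries outside 56 to 62 (2.18%) or without libraries 55, 65, 66 and 67 (5.62%) it was 0 too. Without 1 library it was 1 to 2 (8.13 to 17.1%).

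Signalling genes passing in Low against Control (of 80, with the share of all genes in brackets) numbered 65 with FPKM (89.7%), 4 with rescaled FPKM (13.2%), 14 with TPM (25.4%), 2 with median-of-ratios scaling (6.93%), 5 without mitochondrial genes (10.8%), 0 outside libraries 56 to 62 (2.09%), and 1 to 3 without 1 library (4.31 to 7.86%). In High against Control the count was 6 without libraries 49 and 57 (2.49%). In Low against High it was 68, 13 and 15 with FPKM, rescaled FPKM and TPM (89.8, 20.8 and 25.2%), 9 with only the groups compared (13%) or without mitochondrial genes (16.7%), 31 without libraries 49 and 57 (28.8%), 3 with no filter on low values (7.85%), 2 with median-of-ratios scaling (10.6%), 1 with the covariate for 56 to 62 (2.26%), no scaling (7.99%), libraries outside 56 to 62 (2.18%), or without 55, 65, 66 and 67 (5.62%), and 1 to 12 without 1 library (8.13 to 17.1%; 12 without Control 49, 9 without Low 61, and 1 without High 66, High 67 or Low 59). The order of levels had 1 neighbouring pair past the threshold with FPKM, with TPM and in the High libraries. With FPKM and TPM, Grm3 and Grm7 were not neighbours.

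Among the receptors, directions turned only for differences that did not pass by limma on scaled coverage with all libraries. Some of these differences passed in other settings. With FPKM, Grm3 (0.45) and Grm7 (0.52) passed in Low against Control and Grm4 (0.54) in Low against High. FPKM called most genes in both comparisons. Grm5 in Low against High passed without the pair of libraries in which many genes were low, as given above. The Rgs8 difference passed by coverage but turned with FPKM, rescaled FPKM and TPM, as given above. In Low against Control, Grm3 was -0.035 with rescaled FPKM, Grm4 -0.071 outside libraries 56 to 62, Grm7 -0.00197 with median-of-ratios scaling. Without 1 library, Grm5 in this comparison ran from -0.16 (without Control 49) to 0.30 and Grm7 from -0.028 (without Control 49) to 0.12. In High against Control, Grm2 was 0.16 and Grm7 0.040 without libraries 55, 65, 66 and 67, Grm4 was 0.044 with FPKM, 0.00188 with rescaled FPKM, 0.048 with TPM, 0.00686 with median-of-ratios scaling, 0.15 with no scaling and 0.00203 with the striatal covariate, and with no scaling Grm5 was 0.076 and Grm7 0.11. In Low against High with no scaling, Grm4 was -0.093, Grm5 -0.020 and Grm7 -0.092, and Grm4 was -0.035 outside libraries 56 to 62. The causes were not tested. Values near 0 in the coverage of its reference row limit what can be said of Grm8. No paired analysis was possible because the groups share no replicate numbers.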
